A study of Mus musculus with 6 samples.

Results

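The long intergenic noncoding RNAs (lincRNAs) with enough reads to be measured were followed in the livers of aged WT and *Sirt7* KO mice. Of the 5472 lincRNA genes of GENCODE M21 in the files, 2083 had at least 1 estimated read in sum over the 6 mice, and 83 averaged at least 50 reads per mouse and were taken as members, out of 54115 genes in all. The mice were 24-month-old males, 3 WT and 3 *Sirt7* KO, and all were fasted for 16 h before the liver was taken. The knockout mice carry a germline loss of *Sirt7*, the gene of a NAD+-dependent deacylase, on a C57BL/6J background, and the loss is not restricted to any liver cell type. RNA was made into full-length cDNA with the SMART-seq HT kit, which primes on poly(A) tails, and the Nextera XT libraries held 9994860 to 13424776 reads on transcripts per mouse. Nothing in the labels ties a WT mouse to a KO mouse.

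LincRNAs are transcribed by RNA polymerase II from DNA between coding genes, are mostly capped and spliced, and carry no long open reading frame. Some build nuclear bodies, some hold RNA-binding proteins or microRNAs, some are the precursors of small nucleolar RNAs or microRNAs, and a few turned out to encode short peptides. Most have no known role, and many are low in level and restricted to a few tissues.

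The best known member, *Neat1*, is the scaffold of the paraspeckle, a nuclear body. It lies on chromosome 19, 5824708 to 5845478, minus strand of GRCm38, and is made as a long isoform of 20771 bases (*Neat1-201*) that builds the paraspeckle and a short polyadenylated isoform of 3004 bases (*Neat1-202*) that does not. The long isoform has no poly(A) tail. Its 3′ end is protected by a triple helix, formed by U-rich stretches and a genome-encoded A-rich tract, and the 3′ ends of both isoforms are shown because the reads of both decide what is reported for this gene. Capitals mark a U-rich stretch and the A-rich tract in the first and the polyadenylation signal in the second.
Neat1-201, last 100 bases: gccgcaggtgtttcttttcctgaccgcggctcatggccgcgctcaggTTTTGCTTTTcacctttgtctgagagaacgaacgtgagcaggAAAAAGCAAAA
Neat1-202, last 60 bases: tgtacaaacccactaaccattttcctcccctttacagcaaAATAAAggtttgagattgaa

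*BC049987*, the lincRNA with the largest difference between genotypes, is a gene of unknown function on chromosome 9, 44670453 to 44672238, minus strand. Its gene body starts 995 bases from that of *Treh*, the gene of trehalase, which is read in the opposite direction. The RefSeq promoter window of *BC049987* is given from chr9:44672211-44672510 (GRCm38.p6, minus strand), with a TATAAA motif in capitals. This motif, searched on both strands, was in 7 of the 40 members that had a promoter window, or 17.5%, and in 13.6% of all promoters. A match is a description of the letters and not evidence of a binding site.
BC049987 promoter: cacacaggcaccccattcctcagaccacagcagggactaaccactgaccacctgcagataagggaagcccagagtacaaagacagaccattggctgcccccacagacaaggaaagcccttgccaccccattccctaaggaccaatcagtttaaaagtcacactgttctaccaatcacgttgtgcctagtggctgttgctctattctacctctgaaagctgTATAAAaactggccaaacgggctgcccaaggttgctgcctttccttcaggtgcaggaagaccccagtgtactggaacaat

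Members were selected on the mean read count over all 6 mice alone, so the levels are a description, while the genotype was not part of the rule. Just inside the minimum were *4732419C18Rik* with a mean of 50.2 reads, *2810414N06Rik* with 52.8 and *Snhg6* with 53.5. Just outside were *Gm45322* with 47.9, *Gm5165* with 47.2 and *1700080G11Rik* with 47.0 reads. All 83 members passed the expression filter of the test. In 73 of them the mean was at least 50 reads in WT and in *Sirt7* KO mice taken separately, in 7 it was so in WT mice alone and in 3 in KO mice alone. These 3 were *BC049987*, with 9 to 20 reads in WT and 115 to 268 in KO mice, *4732419C18Rik*, with 28 to 38 and 45 to 82, and *AC138228.2*, with 14 to 86 and 91 to 150. They are members only through the group in which they were high. For them a higher mean in KO mice follows from the rule, also where they are counted as higher below. In the same way a lower mean in KO mice follows from the rule for the 7 members that reached the minimum in WT mice alone. Among these 7 are *Snhg6*, *2810414N06Rik*, *4632415L05Rik* (72 to 95 reads in WT and 33 to 56 in KO mice) and *9030622O22Rik* (65 to 78 and 38 to 48). *4632415L05Rik* and *9030622O22Rik* are counted below as lower without overlap. The median member had a mean of 116 reads, 29 members had fewer than 100 and 7 had at least 1000. The 3 members with most reads, *Neat1*, *Malat1* and *AC160336.1*, held 44.7% of all reads on members.

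The annotation describes mostly short, spliced genes. The leading transcript, the one with most reads, had a median length of 1381 bases and ranged from 216 bases in *Gm29408* to 93147 in *AC160336.1*. It was a single exon in 12 members, had 2 exons in 29 and 3 or more in 42. In 11 members the gene body overlapped a coding gene on either strand, in 18 others the nearest coding gene was within 5000 bases, and in 14 it was beyond 100000 bases. Members were spread over 19 chromosomes, with 0 on X or Y. Only 7 started within 1000 bases of a coding gene that is read in the opposite direction, among them *BC049987* beside *Treh*, *Gm20186* beside *Lsm8* and *2810414N06Rik* beside *Edem3*.

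The targeted gene was examined first. *Sirt7* was at 55.2, 45.5 and 47.3 CPM (reads relative to the effective library size) in WT mice and at 28.6, 41.7 and 40.8 CPM in KO mice. All KO mice were below all WT mice, but the gene total differed by a log2 fold change of -0.41 ± 0.18 (SE) with an adjusted p = 0.42 (edgeR). Its 10-exon isoform *Sirt7-201* held 429, 381 and 408 estimated reads in WT mice and 124, 135 and 77.5 in KO mice, while a 427-base fragment isoform, *Sirt7-202*, held 2.12, 5.12 and 0 reads in WT and 50.5, 54.1 and 93.3 in KO mice. Offsets for transcript length gave the gene total the opposite sign, 0.81 with DESeq2 and 0.80 with edgeR. The isoforms thus set the genotypes apart more widely than the gene total.

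Hepatocyte markers summed to 62795 to 75606 CPM in every mouse and the ranges of all 7 marker lists (hepatocyte, Kupffer, sinusoidal endothelial, stellate, cholangiocyte, lymphocyte and plasma, erythroid) overlapped between genotypes. Of these lists only the erythroid one had a marker at an unadjusted p under 0.05, higher in KO mice (summed range 374 to 546 CPM in WT, 446 to 915 in KO). Where a bulk level differs, fewer cells of a type and less RNA per cell cannot be told apart. WT mouse 1 and KO mouse 1 stood apart from the other mice of their genotype. WT mouse 1 differed from WT mice 2 and 3 by a chi-square per gene of 65.2 and 76.5, and these from each other by 26.3, and KO mouse 1 differed from KO mice 2 and 3 by 60.1 and 48.1, and these from each other by 16.9. KO mouse 1 was closer to WT mouse 3, at 45.4, than to either KO mouse, but farther from WT mice 1 and 2, at 114 and 69.9. Over the members its Spearman's rho was 0.816, 0.730 and 0.840 with WT mice 1, 2 and 3. With KO mice 2 and 3 it was 0.751 and 0.729. WT mouse 1 also had the highest share of reads on retained introns, 2.42%, beside 1.92% to 2.13% in the other mice. KO mouse 1 was the highest of the 6 mice in 23 of the 83 members, while each other mouse was highest in 11 to 14.

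No lincRNA was called higher or lower in *Sirt7* KO liver by edgeR, which required an adjusted p under 0.05 over all 12524 genes tested and a fold change over 1.5. Over all genes 0.00798% were called, that is 1 gene. At an unadjusted p under 0.05 there were 11 members, or 13.3% (9 higher, 2 lower), beside 11.3% of all genes tested (6.54% higher, 4.78% lower). The genotypes did not overlap in 17 members, or 20.5% (12 higher, 5 lower), beside 16.8% of all genes (8.74% higher, 8.09% lower). Both shares are near the background. DESeq2 called 2 members higher, *BC049987* and *AC127342.1*, and 1 lower, *Neat1*, where it called 2.16% of all genes (1.57% higher, 0.595% lower). With transcript length offsets it called the same 2 higher and 0 lower, beside 1.87% of all genes (1.33% higher, 0.532% lower). Among the mice, leaving out KO mouse 1 moved these counts most. Without it edgeR called 252 genes, among them 2 members higher (*BC049987* and *4732419C18Rik*) and 1 lower (*Gm48942*, outside the rule for named genes). At an unadjusted p under 0.05 there were then 8 members higher and 13 lower, and without overlap 15 higher and 19 lower. The shares of all genes called, at that p or without overlap were not computed without this mouse. Fewer mice also overlap less readily, so these counts are not read as a shift of the lincRNAs.

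The log2 fold changes of the members were centred near 0. The log2 fold change was above 0 in 41 and below 0 in 42, with a median of -0.0035, beside -0.0061 over all genes tested. It ranged from -0.99 in *Neat1* to 3.71 in *BC049987*. A fold change over 1.5 in either direction was seen in 13 members, or 15.7%, beside 16.2% of all genes. The median within-genotype SD of log2(CPM + 0.5) was 0.35 for members, 0.31 for 111 long noncoding genes of other types and 0.23 for 8547 coding genes with the same minimum of reads. The median biological coefficient of variation was 24.8%, 24.0% and 19.8%. Median reads were 116, 118 and 229, so the coding genes also stood at higher levels, and the difference in spread was not tested.

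**Figure D1:**
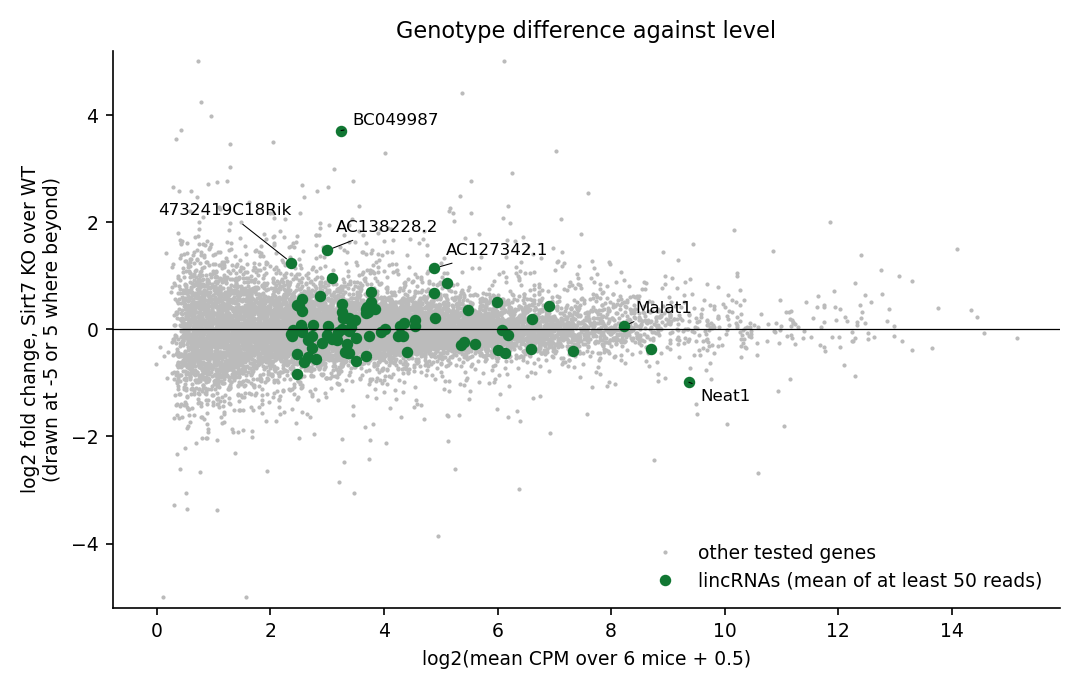
Each point is a gene tested, with log2 of its mean CPM over 6 mice (plus 0.5) on the x axis and the log2 fold change of *Sirt7* KO over WT on the y axis, drawn at the edge where beyond 5. The 83 lincRNAs in green lie around 0 like the other genes in grey, with *BC049987* at 3.71 above them and *Neat1*, the member with most reads, at -0.99 below.

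The share of all reads that fell on the 83 lincRNAs was 0.408%, 0.321% and 0.316% in WT mice and 0.326%, 0.253% and 0.247% in KO mice. KO mouse 1 lay between the WT mice. The mean share was 0.349% ± 0.0515 in WT and 0.275% ± 0.0442 in KO mice (SD, n = 3), a difference of -0.073 percentage points with p = 0.3 in the two-sided exact permutation test, in which 3 mice against 3 cannot go below 0.1. Without *Neat1* the difference was -0.023 percentage points (exact p = 0.4).

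**Figure D2:**
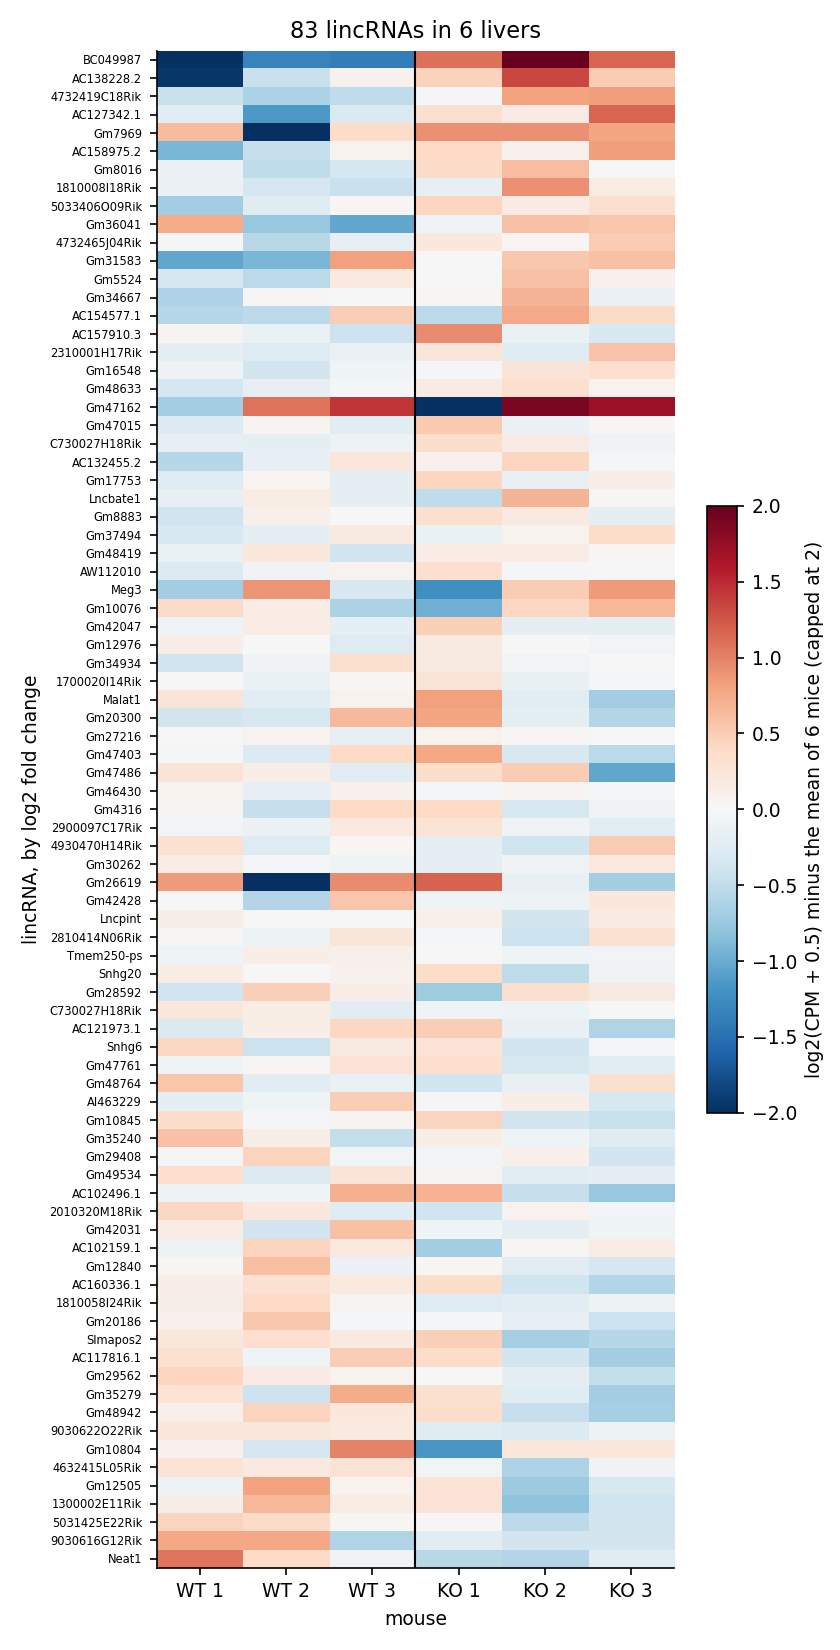
Rows are the 83 lincRNAs in the order of their log2 fold change and columns are the 6 mice. Colour gives log2(CPM + 0.5) minus the mean of the 6 mice, capped at 2. *BC049987*, in the top row, is below its mean in all WT mice and above it in all KO mice, and *1810058I24Rik* shows the reverse. *Neat1*, in the bottom row, is above its mean in WT mice 1 and 2 and slightly below it in WT mouse 3, and *Gm47162*, *Gm7969* and *Gm26619* each hold a mouse at the lower end of the scale.

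Among the lincRNAs of nuclear architecture, *Neat1* was lower in KO mice. It was at 1275, 786 and 575 CPM in WT mice and at 412, 405 and 512 CPM in KO mice. The genotypes did not overlap, but WT mice differed among themselves by more than the lowest of them differed from the KO mice. The means were 879 ± 359 CPM in WT and 443 ± 59.5 CPM in KO mice (SD, n = 3). The log2 fold change was -0.99 ± 0.27 (SE) and did not pass the test over all genes with edgeR (adjusted p = 0.22). With DESeq2 the same counts gave an adjusted p = 0.0063. Leaving out WT mouse 1 brought the log2 fold change to -0.63.

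Most *Neat1* reads were assigned to the long isoform whose 3′ end is shown above. The kit primes on poly(A) tails and this isoform has none, so its reads may not follow its level, which was not tested. *Neat1-201* held 15051, 7927 and 7640 estimated reads in WT mice and 3293, 3264 and 5228 in KO mice, again with every KO mouse below every WT mouse. The short *Neat1-202* held 0, 723 and 127 reads in WT mice and 1201, 554 and 76.1 in KO mice, which overlap. As a share of the gene, the long isoform made up 99.96%, 91.5% and 98.2% in WT mice and 73.2%, 85.3% and 98.5% in KO mice. Both exons of the short isoform lie within the single exon of the long one, so this split rests on Salmon's estimate. With the average transcript length as an offset, which follows this split, the log2 fold change was -0.31 with DESeq2 (adjusted p = 0.86) and -0.32 with edgeR (adjusted p = 0.78), smaller by more than 1.5 times.

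**Figure D3:**
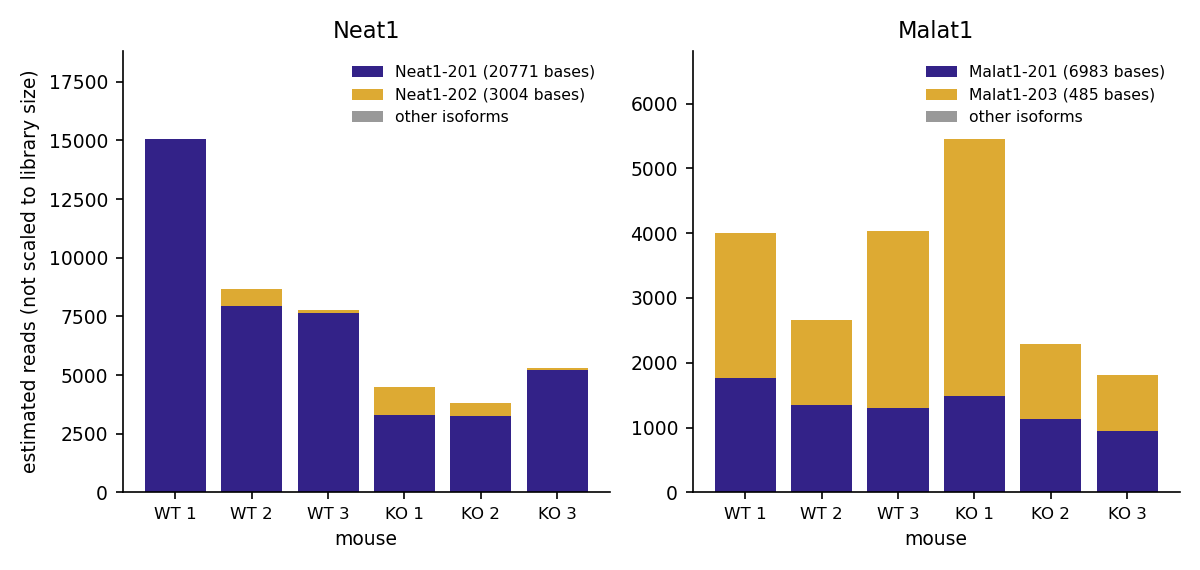
Bars give the estimated reads per mouse, not scaled to library size, stacked by isoform, for *Neat1* (left) and *Malat1* (right). *Neat1-201* reached 7640 to 15051 reads in WT mice and 3264 to 5228 in KO mice, while *Malat1-203*, of 485 bases, varied from 858 to 3971 reads among the KO mice.

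*Malat1*, the neighbour of *Neat1* on chromosome 19 (5795690 to 5802672, minus strand) and an RNA of nuclear speckles, did not follow it in reads. Whether reads of *Malat1* follow its level with a kit that primes on poly(A) tails was not tested either. Its level was 339, 241 and 298 CPM in WT mice and 499, 242 and 174 CPM in KO mice. KO mouse 1 was the highest and KO mouse 3 the lowest of all, and the log2 fold change was 0.06 ± 0.34 (SE, adjusted p = 0.97, edgeR). The sign turned without KO mouse 1, to -0.49, and also with total counts as the only scaling, to -0.05. The spread came mostly from *Malat1-203*, a 485-base transcript, with 2234, 1318 and 2731 reads in WT mice and 3971, 1150 and 858 in KO mice. The single-exon transcript of 6983 bases, *Malat1-201*, held 1766, 1344 and 1301 reads in WT and 1479, 1131 and 947 in KO mice. *Malat1-201* spans the whole gene, so this split again rests on Salmon's estimate. *2900097C17Rik*, known as *Norad*, which binds Pumilio proteins and guards chromosome number, was even between genotypes, at 67.4 ± 7.72 CPM in WT and 67.1 ± 12.1 CPM in KO mice (SD, n = 3). Its log2 fold change of -0.0063 ± 0.17 (SE) turned to 0.0095 with DESeq2 and length offsets.

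Proteins that bind *Neat1* or form the paraspeckle with it were taken from a list of 27 genes, of which 26 were in the files and 25 were tested. Of these, 0 of 25 were at an unadjusted p under 0.05 with edgeR, where 11.3% of all genes were, 0 were called by edgeR or DESeq2, and the median log2 fold change was -0.025. The 3 with the largest size of change were *Zfp24* at -0.44, *Sfpq* at -0.43 and *Pspc1* at 0.42. *Sfpq* and *Pspc1* encode core paraspeckle proteins of the same family as *Nono*, which was at 0.04.

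*Meg3*, *Snhg6*, *Snhg20* and *Lncpint*, the other members from the imprinted, small RNA host and p53 lists beside *Neat1*, were low and did not differ beyond the spread. *Meg3*, a maternally expressed imprinted RNA of chromosome 12 (109541001 to 109571726, plus strand) and host of *Mir770*, was at 5.504, 17.4 and 7.40 CPM in WT mice and at 3.66, 13.5 and 17.1 CPM in KO mice. Each genotype thus held a mouse at more than 13 CPM and a mouse below 6. Its log2 fold change was 0.17 ± 0.56 (SE, adjusted p = 0.95, edgeR), and -0.24 without KO mouse 3. *Snhg6*, the host of *Snord87*, was at 4.93 ± 1.53 CPM in WT and 4.5 ± 1.14 CPM in KO mice (SD, n = 3), and *Snhg20* at 7.72 ± 0.437 and 7.18 ± 2.33 CPM. *Lncpint*, an RNA induced by p53, was at 5.51 ± 0.291 CPM in WT and 5.29 ± 1.10 CPM in KO mice. The log2 fold changes of these 3 lay between -0.13 and -0.06 and each turned positive in at least 1 alternative.

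Most other RNAs of these lists were either too low or of another gene type. The lincRNAs *H19*, *Mirg*, *Mir155hg*, *Mir142hg*, *Miat* and *Xist* averaged at most 1 read per mouse, and *Trp53cor1* and *Mir124a-1hg* had 0 reads in every mouse. *Ftx*, *Jpx*, *Pvt1* and *Snhg12* were detected with means of 16.4, 29.5, 13.2 and 25 reads but missed the minimum. The X chromosome list and the list of ribosomal RNA-like transcripts gave no member. *AC157910.3*, which hosts *Mir122*, the leading microRNA of hepatocytes, and was chosen after its values were seen, was at 117, 103 and 85.2 CPM in WT mice and at 218, 103 and 91.1 CPM in KO mice. KO mouse 1 alone was high, and without it the log2 fold change of 0.43 ± 0.31 (SE, adjusted p = 0.66, edgeR) became -0.07.

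*BC049987* gave the largest difference of all members. It was at 0.762, 1.54 and 1.48 CPM in WT mice and at 10.6, 28.4 and 11.1 CPM in KO mice. Every KO mouse was several times above every WT mouse. The means were 1.26 ± 0.433 CPM in WT and 16.7 ± 10.1 CPM in KO mice (SD, n = 3), a log2 fold change of 3.71 ± 0.48 (SE). The adjusted p of 0.055 from edgeR missed the threshold, and DESeq2 gave 1.1e-12, or 1.9e-10 with length offsets. Without KO mouse 1 the adjusted p of edgeR was 0.018, and the log2 fold change stayed between 3.09 and 3.95 whichever mouse was left out.

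All 3 annotated isoforms of *BC049987* had more reads in KO mice. The 2-exon *BC049987-201* held 0, 14.3 and 16.8 reads in WT mice and 53.8, 164 and 67.6 in KO mice, and the single-exon *BC049987-203* held 8.998, 1.54 and 3.66 reads in WT and 51.6, 75.9 and 32.5 in KO mice. Reads assigned to the 2-exon and to the single-exon isoform thus both stood above WT, and their split rests on Salmon's estimate. Only 5.52% of its words of 31 bases occurred in another gene. *Treh*, on the other side of the shared region, was at 0.762, 4.08 and 2.07 CPM in WT mice and at 2.20, 8.79 and 4.14 CPM in KO mice. These values overlap, and the log2 fold change was 1.13 ± 0.64 (SE, adjusted p = 0.57, edgeR).

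Among the other members that were higher at an unadjusted p under 0.05, *4732419C18Rik* (chromosome 8, 123744631 to 123754726, minus strand) was at 2.96, 2.54 and 2.81 CPM in WT mice and at 4.12, 7.74 and 7.90 CPM in KO mice. WT mice were close together and all KO mice were above them. The log2 fold change was 1.24 ± 0.33 (SE, adjusted p = 0.21, edgeR), and without KO mouse 1 it was 1.49 with an adjusted p = 0.046. It overlaps *Gm20388*, a coding gene on the other strand, whose log2 fold change was -0.06.

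*AC138228.2* (chromosome 17, 31907879 to 31909029, minus strand) was at 1.19, 4.26 and 6.36 CPM in WT mice and at 8.42, 15.9 and 8.77 CPM in KO mice. WT mice here spanned more than the gap between genotypes. Its log2 fold change was 1.47 ± 0.51 (SE, adjusted p = 0.33, edgeR), and 1.04 without WT mouse 1. None of its words of 31 bases occurs in another gene. *Hsf2bp*, its nearest coding gene at 35740 bases, differed by 1.36 ± 0.95 (log2, SE) with overlapping genotypes.

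On chromosome 18, *AC127342.1* was at 21.9, 11.4 and 21.1 CPM in WT mice and at 32.4, 28.9 and 58.8 CPM in KO mice. The log2 fold change was 1.14 ± 0.32 (SE). Its adjusted p was 0.23 with edgeR, and 0.015 with DESeq2 or 0.046 with length offsets. The nearest coding gene, *Eif1a*, a translation initiation factor 14351 bases away, was at 0.56 ± 0.25 (log2, SE). *AC158975.2*, on the same chromosome, was at 16.6, 22.8 and 33.1 CPM in WT mice and at 42.1, 33.5 and 56.8 CPM in KO mice, a log2 fold change of 0.87 ± 0.27 (SE, adjusted p = 0.28, edgeR). WT mouse 3 and KO mouse 2 nearly touched, and 90.2% of its words occur in other genes.

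The remaining higher members differed by less than 1 on the log2 scale. *Gm8016* was at 10.02 ± 1.46 CPM in WT and 16.3 ± 3.50 CPM in KO mice (SD, n = 3), with a log2 fold change of 0.70. Of its words of 31 bases, 53.1% occur in other genes, so it is uncertain as a single gene. *5033406O09Rik* was at 5.41 ± 1.46 and 8.32 ± 0.773 CPM (0.62), and *4732465J04Rik* at 10.8 ± 2.10 and 15.5 ± 2.69 CPM (0.51). In these 3 the genotypes did not overlap. *1810008I18Rik*, the last of the 9, was at 25.3, 21.8 and 19.97 CPM in WT mice and at 24.4, 52.5 and 30.5 CPM in KO mice, which overlap, with a log2 fold change of 0.68. All 4 had an adjusted p between 0.28 and 0.42 with edgeR.

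The other lower member was *1810058I24Rik* (chromosome 6, 35252654 to 35263496, plus strand), which is annotated as a lincRNA although it is known as *Stmp1*, the gene of a short mitochondrial peptide. It was at 69.3, 83.6 and 66.1 CPM in WT mice and at 52.7, 54.7 and 59.2 CPM in KO mice. Levels within each genotype were close, with means of 73.0 ± 9.34 and 55.5 ± 3.29 CPM (SD, n = 3), and the log2 fold change was -0.39 ± 0.15 (SE, adjusted p = 0.35, edgeR). Its leading 690-base isoform held 608, 690 and 643 reads in WT mice and 395, 378 and 439 in KO mice.

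**Figure D4:**
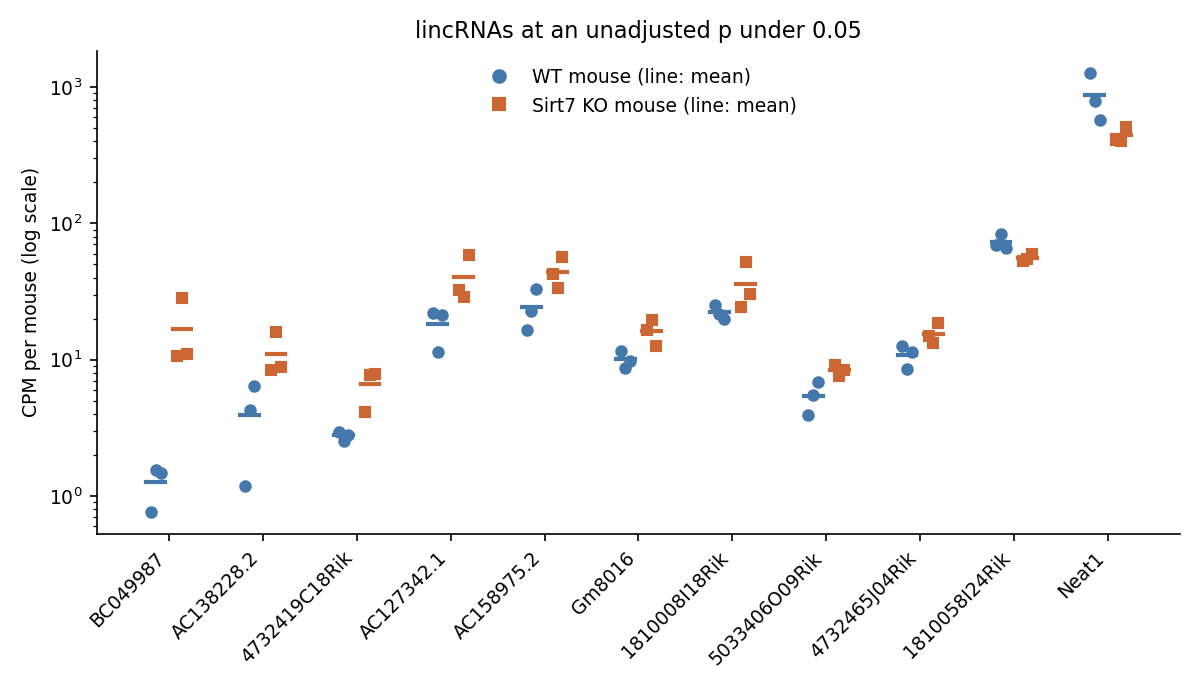
Points are the CPM of single mice, on a log scale, for the 11 lincRNAs at an unadjusted p under 0.05, ordered by log2 fold change, and lines are the means of 3 mice. *BC049987* lies at 0.762 to 1.54 CPM in WT mice and at 10.6 to 28.4 in KO mice, whereas *1810008I18Rik* still overlaps between genotypes and *Neat1* and *1810058I24Rik* lie lower in KO mice.

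Per unit of effective length the order of members was different from that of reads. *Gm29408*, a 216-base single-exon gene, had the highest mean TPM of the members, at 3100 ± 562 (SD over 6 mice). TPM relates reads to the library and to Salmon's effective transcript length, which is proportionally smallest in short transcripts. The first rank of *Gm29408* thus rests on this length as well as on reads, and whether it follows the level was not tested. *Malat1* followed at 641 ± 331, then *Gm20186* at 306 ± 63.6, *Gm42428* at 233 ± 65.7 and *Gm12840* at 208 ± 48.8 TPM. The place of *Malat1* in this order rests on Salmon's split, with 60.6% of its reads given to the 485-base *Malat1-203*. Neighbours in this order below *Gm29408* overlapped within their SDs, and the median member was at 10.6 TPM. *Neat1*, first in reads, was at 38.4 ± 13 TPM. The next in order were *AW112010* at 193, which encodes a short peptide in activated immune cells, *Gm47162* at 185, *Gm10076* at 142, *Gm8883* at 110 and *1810058I24Rik* at 99.3 TPM.

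Of these members high in TPM only *1810058I24Rik*, described above, was at an unadjusted p under 0.05. *Gm20186*, head to head with *Lsm8*, was at 166, 228 and 153 CPM in WT mice and at 154, 140 and 116 CPM in KO mice. KO mouse 1 just exceeded WT mouse 3, and the log2 fold change was -0.41 ± 0.19 (SE, adjusted p = 0.46, edgeR). *Gm12840* was at -0.37 and *Gm29408* at -0.23 on the same scale, and *AW112010* at 0.19 and *Gm8883* at 0.21. *Gm20186*, *Gm12840* and *Gm29408* are uncertain as single genes, since each shares 51.6% to 80.5% of its words of 31 bases with other genes and *Gm12840* shares 59.8% of them with *Gm20186*.

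Salmon divides a read that fits several genes among them. In 20 members at least 50% of the words of 31 bases in the transcripts occurred in another gene, in 45 under 10% did, and in 12 none did. The median was 8.29%. *Gm42428* shared all of its words, *Gm10076* shared 82.2% with *Rpl41*, a gene of the large ribosomal subunit, and *Gm47162* shared 94.7% with the pseudogene *Scp2-ps2*, which lies on its other strand. Of the 20 members with much shared sequence 2 were at an unadjusted p under 0.05 (10%), and of the 45 with little 9 were (20%), beside 11.3% of all genes tested. The difference between the groups was not tested.

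*Gm48419* and *Gm7969* are near-identical copies on chromosome 13. The 2884-base transcripts of *Gm48419* (67965483 to 67970239, plus strand) and *Gm7969* (67949751 to 67954507, plus strand) differ at 1 base, C2115T, counted from the 5′ end of the transcript with the base of *Gm48419* first. The window around it is shown for both, with the base that differs in capitals.
Gm48419: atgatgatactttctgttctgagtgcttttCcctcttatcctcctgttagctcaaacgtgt
Gm7969: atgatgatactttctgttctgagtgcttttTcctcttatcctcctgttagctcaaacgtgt
In 5 of 6 mice both genes were given the same number of reads, 105, 99, 120, 103 and 104. In WT mouse 2 *Gm48419* was given 127 and *Gm7969* was given 0. Between these genes the reads were thus split evenly or not at all. Another copy, *Gm48423*, is identical to *Gm48419* over the 2884 bases and was not analysed here, so reads given to *Gm48419* cannot be told apart from reads of *Gm48423*. The fitted log2 fold change was 0.21 ± 0.22 (SE) for *Gm48419* and 0.97 ± 0.84 (SE) for *Gm7969*. The genotypes overlapped for *Gm48419* and not for *Gm7969*, although the 2 genes differ in this mouse alone.

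The largest spread within genotypes, as the pooled SD of log2(CPM + 0.5), was in *Gm47162* (3.06), *Gm7969* (1.68), *Gm26619* (1.42), *Meg3* (0.98) and *AC138228.2* (0.82). *Gm47162* was at 12.96, 45.2 and 57.3 CPM in WT mice and at 0, 78.7 and 70.2 CPM in KO mice, and *Gm26619*, which overlaps *Gm10260* on the other strand, fell to 1.09 CPM in WT mouse 2 beside 12.3 and 13.1 in the other WT mice. No direction can be given for these: both changed sign when a mouse was left out. The first 3 share 49.6% to 98.9% of their words with other genes, while *AC138228.2* shares none. Among 83 members 2 had a mouse with 0 reads, *Gm47162* and *Gm7969*.

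**Figure D5:**
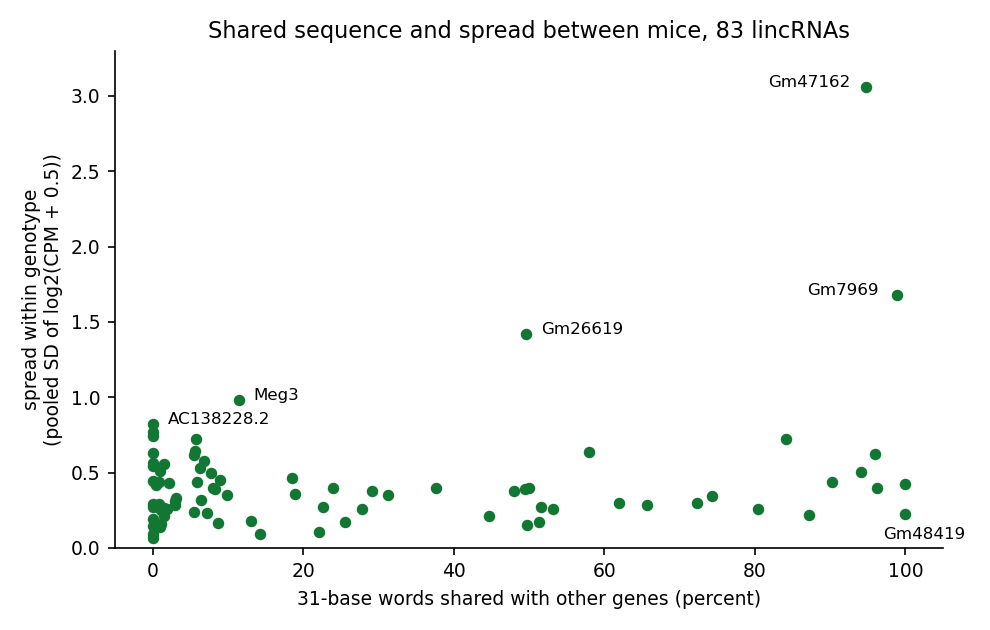
Each point is 1 of 83 lincRNAs, with the percent of its 31-base words that occur in other genes on the x axis and the pooled SD of log2(CPM + 0.5) within genotypes on the y axis. The highest points, *Gm47162* and *Gm7969*, share 94.7% and 98.9% of their words, but most members with much shared sequence lie below 0.75 like the rest.

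The nearest coding gene was tested for 57 members. Member and neighbour had a log2 fold change of the same sign in 26 of 57 pairs. Across these pairs Pearson's r was 0.35 and Spearman's rho 0.02, and r fell to 0.21 without *BC049987*. Pairs share the 6 libraries and are not independent. *Frmd8*, beside *Neat1*, was at 0.25, *Zfp236* beside *AC158975.2* at -0.24, *Mtrr* beside *Gm8016* at -0.10, *Atp5mpl* beside *5033406O09Rik* at -0.23 and *Gm33543* beside *4732465J04Rik* at 0.27 on the log2 scale, and *Slc13a4* beside *1810058I24Rik* was too low to be tested. All 5 had overlapping genotypes.

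*Gm31583* and *Bcl6* form a pair picked with its values known. The genes lie 96231 bases apart on chromosome 16, and *Bcl6* encodes a transcriptional repressor of hepatic lipid genes. *Bcl6* was at 5.93, 9.89 and 3.18 CPM in WT mice and at 34.0, 13.7 and 21.6 CPM in KO mice. The genotypes did not overlap, with a log2 fold change of 1.88 ± 0.43 (SE) and an adjusted p = 0.17 with edgeR, and 4.6e-04 with DESeq2. *Gm31583* was at 27.1, 29.5 and 99.2 CPM in WT mice and at 55.7, 81.7 and 84.0 CPM in KO mice, a log2 fold change of 0.50 ± 0.45 (SE, adjusted p = 0.73, edgeR). WT mouse 3, the lowest in *Bcl6*, was the highest in *Gm31583*, and without it the log2 fold change of *Gm31583* was 1.39.

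Genes that process noncoding RNA, such as subunits of the exosome, Integrator and RNase P and MRP, were taken as a list of 48, of which 46 were tested. By edgeR 3 were higher and 0 lower at an unadjusted p under 0.05, or 6.52% beside 11.3% of all genes, and 0 were called by edgeR or DESeq2. The median log2 fold change was -0.0048. The 3 with the largest size of change were *Rpp38*, a subunit of RNase P, at -0.85 ± 0.41, *Ints10*, of Integrator, at 0.77 ± 0.34, and *Exosc9*, of the exosome, at 0.66 ± 0.25 (SE).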

How the data were processed

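RNA-seq of 6 livers, 3 WT and 3 *Sirt7* KO, was analyzed. The authors trimmed 75-base single-end reads with Trim Galore 0.6.5 and quantified them against GRCm38 transcripts with Salmon 1.2.1, and deposited, mouse by mouse, expected counts (Salmon's estimated number of reads on a transcript, not normalized) and TPM, which the authors' Salmon run scaled to length and to a fixed total. The annotation release is not given in the sources used here. Transcripts were summed to genes of GENCODE M21, in which 139172 of 140992 matched with the same version, 619 with another version and 1201 with no gene (0.303% to 0.492% of reads, left out), and counts were rounded. Salmon's strand setting is not given in the sources used here, so reads of a lincRNA and of a gene on the other strand may not be told apart (23 members overlap such a gene).

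Genotypes were compared with edgeR 4.0.16 (quasi-likelihood, TMM, filterByExpr with a minimum count of 10, R 4.3.3), with Benjamini-Hochberg adjustment over 12524 genes, and in alternatives with DESeq2 1.42.0, with and without average transcript length offsets. Scripts were tested on simulated data. In 5 simulations with 200 changed genes each, the edgeR test recovered 24% of 2-fold and 79.4% of 4-fold changes, with 9.62% false calls. A lack of calls is thus not a lack of difference. In a simulation with no changed gene the edgeR test called 1 gene. Single values per mouse were compared by exact permutation (scipy 1.17.1). No 2 mice agreed within sampling noise (chi-square per gene at least 16.9), so each counted as 1 sample. The depth of 9994860 to 13424776 reads leaves members near 50 reads imprecise, and without molecular identifiers depth covers counting error only. Sequences came from GENCODE M21 transcripts and RefSeq promoters (GRCm38.p6, matched for 40 of 83 members).

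The text names listed RNAs, the 10 members highest in TPM, non-overlapping members at an unadjusted p under 0.05 with their nearest coding genes, the 5 with the largest spread and the 3 on each side of the minimum. *AC160336.1*, *AC157910.3*, *Gm31583*, *Gm48419*, *1810008I18Rik*, *Gm48942*, *4632415L05Rik*, *9030622O22Rik* and their neighbours lie outside this rule and were chosen after their values were seen. Members and lists were chosen with earlier results of these data known.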

Additional observations from a re-analysis of the deposited data

How the results depend on the processing

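Of 243 values of the 27 named lincRNAs under other normalizations, filters, tools, offsets or the replicate block, 231 kept their direction and 13 newly passed the threshold. With 1 mouse left out, 138 of 162 kept it. DESeq2 called 2 lincRNAs higher and 1 lower among 258 genes, with a median over all genes of -0.019 (log2). With length offsets it called 2 higher among 242 genes (median -0.021), with 1 lincRNA lower at an unadjusted p under 0.05. edgeR with these offsets called 2 genes. Without the filter on low counts, edgeR called 7 lincRNAs higher and 1 lower among 633 genes (median of all genes -0.020), with 7 lower at an unadjusted p under 0.05. Upper quartile scaling gave a median of -0.016. Total counts as the only scaling moved the medians of lincRNAs and of all genes together, to -0.11 and -0.11, with 2 genes called, 6 lincRNAs lower at an unadjusted p under 0.05, and 6 higher and 8 lower without overlap. Shares of all genes at that p or without overlap were not computed for these alternatives. Shares of all genes called were computed for DESeq2 alone, as given above. The other lincRNA counts here have no background beside them.

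With a minimum of 20 reads, 15 lincRNAs were higher and 7 lower at an unadjusted p under 0.05, and 18 were higher and 14 lower without overlap. Over all genes tested 11.3% were at that p and 16.8% were without overlap. The number of lincRNAs at this minimum is not given here, so their share cannot be set against these. With 100 reads, which leaves out 29 of the 83 members, 5 were higher and 2 lower at that p, and 7 higher and 3 lower without overlap. Adding the 111 genes of other long noncoding types gave 12 higher and 12 lower at that p, 16 higher and 18 lower without overlap and a median of -0.11. The alternative without ribosomal RNA-like members was not run, since there was none.

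Replicate numbers do not pair the mice. The deviations of same-numbered mice correlated at 0.065, 0.080 and -0.044, and with the number as a replicate block 41 genes were called, among them 1 lincRNA higher (*BC049987*, log2 fold change 3.61). The share of all genes called with the block was not computed. The block turned *Malat1* to -0.070, *Gm42428* to 0.011, *Gm47162* to -0.52 and *Gm26619* to 0.18. Total counts turned *Malat1* to -0.049. Length offsets turned *Sirt7* to 0.81 (DESeq2) and 0.80 (edgeR), *2900097C17Rik* to 0.0095 and 0.0024, *Snhg20* to 0.061 and 0.055, *Lncpint* to 0.11 and 0.10, and, with DESeq2, *Snhg6* to 0.0051.

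Leaving out each mouse in turn, 0 to 252 genes were called, and 0 to 2 lincRNAs higher and 0 to 1 lower. The highest of these counts, and the 13 lincRNAs lower at an unadjusted p under 0.05 (range 1 to 13) and the 19 lower without overlap (range 5 to 19), came without KO mouse 1, where *BC049987* and *4732419C18Rik* were called higher and *Gm48942* lower. Shares of all genes called, at that p or without overlap were not computed with a mouse left out, and fewer mice overlap less readily. Without WT mouse 1, 2 genes were called, and without each of the other 4 mice 0. The median of all genes ranged from -0.020 to 0.0046. Log2 fold changes that turned ranged from -0.31 to 0.088 in *2810414N06Rik*, -0.16 to 0.10 in *2900097C17Rik*, -0.14 to 0.54 in *Gm10076*, -0.84 to 0.36 in *Gm26619*, -0.30 to 0.30 in *Gm42428*, -0.13 to 0.95 in *Gm47162*, -0.17 to 0.10 in *Lncpint*, -0.49 to 0.34 in *Malat1*, -0.24 to 0.82 in *Meg3*, -0.37 to 0.10 in *Snhg20* and -0.35 to 0.071 in *Snhg6*. The causes were not tested. At this depth members near 50 reads carry few reads per mouse.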

Other observations

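Long noncoding genes of other annotation types (antisense, processed transcript, sense intronic and the like) with the same minimum of 50 reads numbered 111. None was called by edgeR, and 13 were at an unadjusted p under 0.05, 3 higher and 10 lower, or 11.7% beside 11.3% of all genes tested. Of the 111, 79 had a log2 fold change below 0, with a median of -0.17, beside 42 of 83 and -0.0035 for the lincRNAs. The difference between these types and the lincRNAs was not tested. Their summed share of reads was 0.305% ± 0.0084 in WT and 0.268% ± 0.0138 in KO mice (SD, n = 3), with p = 0.1 in the two-sided exact permutation test, the smallest that 3 mice against 3 can give.

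Hosts of small nucleolar RNAs of these types included *Gas5*, *Zfas1* and *Snhg1*, the last below the minimum of 50 reads. *Gas5* was at 79.7, 60.1 and 70.2 CPM in WT mice and at 77.3, 40.7 and 37.2 CPM in KO mice, where KO mouse 1 alone reached the WT range (log2 fold change -0.44 ± 0.27, SE, adjusted p = 0.59, edgeR). *Snhg1*, which averaged 36.5 reads, was at 4.66, 2.81 and 4.66 CPM in WT mice and at 2.01, 2.12 and 2.70 CPM in KO mice, and *Zfas1* was at 6.94, 5.90 and 7.62 CPM in WT and at 7.51, 3.60 and 2.79 CPM in KO mice. The imprinted antisense RNA *Kcnq1ot1* was at 21.5, 19.8 and 17.5 CPM in WT mice and at 18.3, 12.8 and 10.6 CPM in KO mice. *Mir22hg*, *Firre* and *Tug1* differed by -0.02, 0.10 and -0.15 on the log2 scale. These genes were chosen after their values were seen.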
